A study of Homo sapiens with 32 samples.

Results

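The transcripts of 9 enzymes of mitochondrial fatty acid oxidation were followed through the RNA sequencing of THP-1 cells with altered ATP-citrate lyase (ACLY). The genes, CPT1A, CPT2, ACADM, ACADVL, HADHA, HADHB, ACAA2, ECHS1 and ETFDH, were taken by their symbols from the 60107 genes of the deposited tables, and all 9 were among the 12406 genes with enough reads to be tested. THP-1 is an established human monocytic leukemia cell line. All 4 lines started from ACLY knockout THP-1 cells. KO is that knockout, and WT, HA and SA are knockout cells that received by lentivirus, under an EF1 promoter and with puromycin selection, wild-type ACLY, the catalytically inactive mutant H760A or the mutant S455A, which cannot be phosphorylated at that serine. Whether the KO cells were transduced is not stated. Each line was left untreated or was given lipopolysaccharide (LPS, a bacterial cell wall component) at 100 ng/ml for 3 h. With 4 libraries in each of the 8 groups there were 32 libraries of 6504099 to 14750815 reads on genes. The labels name 1 line per genotype and do not say whether the 4 libraries came from separate cultures, so that p-values measure the spread between these libraries, and any other difference between the lines cannot be told apart from the ACLY genotype.

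Fatty acids are burned in the mitochondrial matrix. The carnitine shuttle brings long-chain acyl groups in, a spiral of 4 reactions (dehydrogenation, hydration, a second dehydrogenation and thiolytic cleavage) then releases acetyl-CoA step by step, and electron carriers pass the electrons to the respiratory chain. ACLY works at the opposite end of this metabolism, where it turns exported citrate into cytosolic acetyl-CoA, the precursor of malonyl-CoA, which in turn inhibits the shuttle at CPT1. In macrophages fatty acid oxidation is best known for its association with alternative activation, while LPS favors glycolysis. In these libraries, 2 of the 9 enzymes were called between HA and WT cells when both treatments were averaged (the thiolase ACAA2 lower and the medium-chain dehydrogenase ACADM higher), where 9.08% of all genes were called, and neither was called once same-numbered libraries were averaged. Further, the shuttle enzyme CPT1A was measured lower in KO cells. It passed the test only under some treatments of the libraries, the paired fit among them. No enzyme passed the test for a response to LPS in any line, where only 0.25 to 0.58% of all genes did. None passed for a difference between SA and WT, where 0% of all genes did.

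The upstream sequence is shown for ACADM and ACAA2, the 2 members called in HA cells, and for HADHB, but not for CPT1A. For ACADM, ACAA2 and HADHB the 250 bases before the RefSeq start site are given. The HADHB stretch is shown because it also covers most of the space to the start of HADHA, whose protein forms 1 complex with that of HADHB, as the start sites lie head to head 307 bases apart. Positions are those of RefSeq on GRCh38.p14, read 5′ to 3′ along each gene's own strand, with the GC box letters GGGCGG or CCGCCC in capitals, overlapping matches joined.
ACADM (chr1:75724459-75724708, plus strand): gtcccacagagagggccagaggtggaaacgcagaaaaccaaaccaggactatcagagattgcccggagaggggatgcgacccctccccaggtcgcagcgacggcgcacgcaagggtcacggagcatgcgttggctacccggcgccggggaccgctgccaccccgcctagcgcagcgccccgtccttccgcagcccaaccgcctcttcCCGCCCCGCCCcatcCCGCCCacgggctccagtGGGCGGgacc
ACAA2 (chr18:49813534-49813783, minus strand): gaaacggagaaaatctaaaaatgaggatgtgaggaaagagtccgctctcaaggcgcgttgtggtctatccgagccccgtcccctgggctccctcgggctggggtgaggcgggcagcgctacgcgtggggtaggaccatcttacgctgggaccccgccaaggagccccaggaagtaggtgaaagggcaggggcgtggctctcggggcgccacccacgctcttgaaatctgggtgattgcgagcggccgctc
HADHB (chr2:26244689-26244938, plus strand, wholly between the HADHB and HADHA starts): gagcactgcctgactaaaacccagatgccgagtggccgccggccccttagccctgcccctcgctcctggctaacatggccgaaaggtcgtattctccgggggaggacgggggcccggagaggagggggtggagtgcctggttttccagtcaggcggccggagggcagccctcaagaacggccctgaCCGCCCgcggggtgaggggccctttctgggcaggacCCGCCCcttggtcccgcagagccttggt
The ACADM stretch holds 4 matches to the GC box (of which 2 overlap), the HADHB stretch 2 and the ACAA2 stretch none, where 42.6% of 35116 RefSeq promoters hold at least 1 on either strand in the same window. Promoters were given for 8 of the 9 members, and 6 of these had a GC box in at least 1 of their windows. The HADHA and HADHB windows overlap, and the HADHA match is the same site as 1 of the HADHB matches, so that site counts for both. ACADVL had more than 1 window, whereas the share over all promoters is for single windows. AGGTCA (or TGACCT), the half-site read by the PPAR family and other nuclear receptors that control fatty acid oxidation genes, was in none of the members' windows and in 12.1% of all promoters. These are matches of letters only.

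The tables had been normalized for each line apart, so the reads were put on 1 joint scale over all 32 libraries. Relative to this scale, the deposited values were shifted against WT by −0.10 (KO), 0.15 (HA) and 0.26 (SA) on the log2 scale. A gene was called at an adjusted p below 0.01 (limma over all tested genes, Benjamini-Hochberg), and all fold changes are of log2(normalized count + 1). On the deposited scale the genes called between HA and WT over both treatments split into 1431 higher and 291 lower instead of 625 and 501, and those between KO and WT into 407 and 659 instead of 523 and 439.

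Several facts about the libraries bear on the members. ACLY itself was read at 60.3 to 107 normalized counts in the 8 KO libraries and at 90.7 to 124 in the 8 WT libraries. These 3′ tags lie at the end of the transcript, which a knockout need not remove and a transgene need not carry, so they do not check the labels. The LPS treatment was visible in every line: CCL4, a chemokine induced by LPS, rose with LPS by 4.74 ± 0.27 on the log2 scale over the 4 lines (SE; limma adjusted p = 1.3e-13). Monocyte markers were present (all 10 at a mean of at least 10), while of 5 lymphocyte and 5 epithelial markers 1 and 0 reached this level, with CD3E and KRT19 at 0 reads in all libraries. The summed normalized counts of the monocyte markers, with both treatments, were 13361 to 16338 for WT libraries and 14642 to 15671 for SA libraries, against 27860 to 44064 for KO libraries and 25949 to 31077 for HA libraries. LYZ, for lysozyme, made up much of this sum (a mean of 4851 in untreated WT, 18560 in KO and 14954 in HA cells), and the list did not move one way. Over both treatments 4 of the 10 markers were called higher and 1 (CD33, −0.59) lower in KO, where 7.75% of all genes were called. In HA, where 9.08% of all genes were called, 2 were called higher and 2 (CD14, −0.78, and ITGAM, −1.24) lower. The part of these differences in the results on KO and HA cells was not tested. The most deviating library of each group was taken as the one with the largest SD of its genes around the group mean, so that every group has 1: number 3 in the WT and KO groups and number 1 in the HA and SA groups, with and without LPS. Most distant was SA LPS library 1, which correlated with its group at r = 0.79 to 0.80. Its SD was 1.38, against at most 0.528 in the others of its group and 0.817 in KO library 3. In untreated SA cells library 1 (SD 0.506) hardly differed from library 3 (0.458). The share of reads on ribosomal protein genes differed between lines. It was 13.3 to 15.8% for the WT line and 8.86 to 15.2% for SA, against 9.33 to 12.4% for KO and 9.18 to 12.7% for HA, and it was low in the most deviating libraries (8.86 to 13.8%, against a median of 13.4% in the other 24). The share of mitochondrially encoded reads was 3.42 to 6.62% for WT and 3.81 to 7.95% for SA, and 3.32 to 8.02% for KO and 5.60 to 8.36% for HA.

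**Figure D1:**
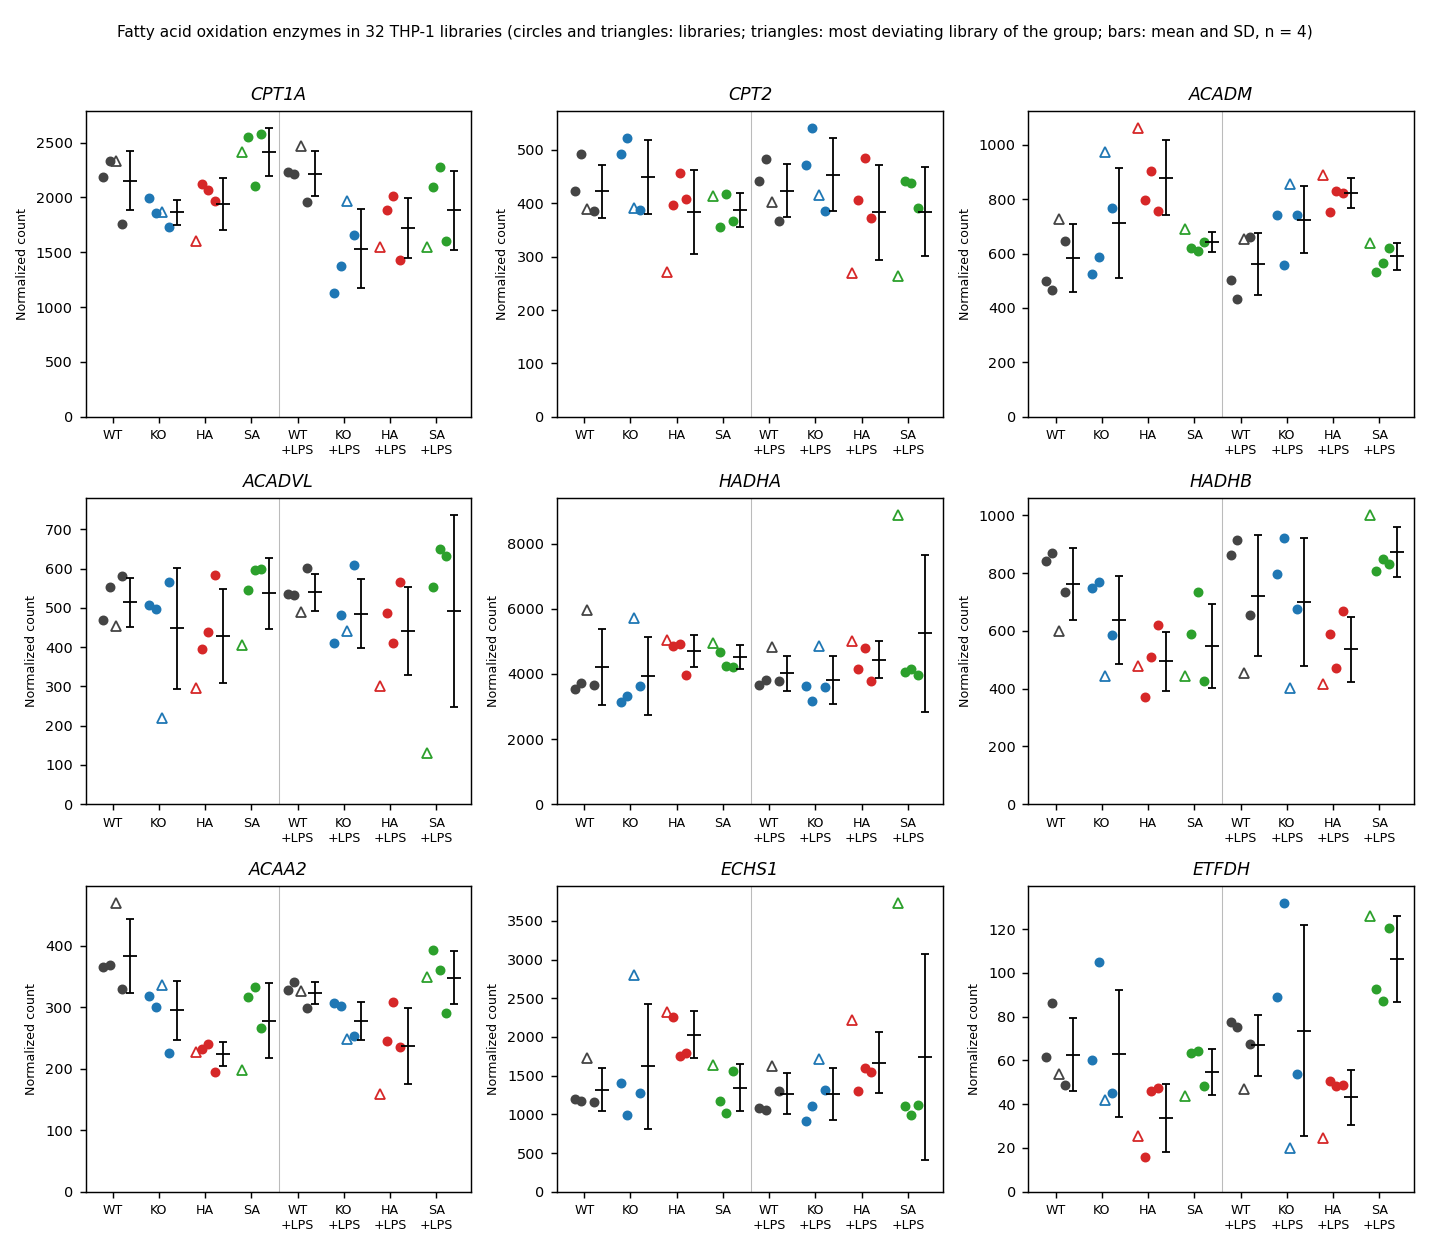
Normalized counts (joint scale, linear axes from 0) of the 9 enzymes in all 32 libraries, by group. Circles and triangles are libraries, open triangles the library of each group that deviated most over all genes, and bars the mean and SD of 4 libraries. ACADM sits higher in the HA than in the WT groups, ACAA2 lower, and the triangles are the top HADHA and ECHS1 values of every group.

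CPT1A (GRCh38, chr11:68754620-68844410, minus strand) loads long-chain acyl groups onto carnitine at the outer mitochondrial membrane, the step that malonyl-CoA inhibits. Its normalized counts in WT were 2190.0, 2336, 2334 and 1759.9 untreated and 2233, 2215, 2466 and 1961 with LPS. In KO they were 1999, 1856, 1870.4 and 1728 untreated and 1133, 1375, 1966 and 1661 with LPS. The untreated KO values lay inside the WT range or just below it, and with LPS 3 of 4 KO libraries were below every WT library and the fourth, number 3, was at the level of the lowest of them. The other lines were measured at 1600.3, 2124, 2069 and 1969 (HA), 1549.7, 1884, 2016 and 1429.8 (HA with LPS), 2419, 2556, 2103 and 2580.4 (SA) and 1547, 2096, 2280.5 and 1606 (SA with LPS).

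In KO against WT with LPS, where 3.47% of all genes were called, CPT1A was at 0.679 of its WT level (log2 fold change −0.56, 95% interval −0.88 to −0.24, limma adjusted p = 0.025) and was not called. Over both treatments (7.75% of genes called) the log2 fold change was −0.38 ± 0.11 (SE, limma adjusted p = 0.019). Here libraries of the same number deviated together in the WT and KO groups (every pair at r of 0.12 to 0.72 over all genes), so the numbers pair these samples. With the replicate number as a block CPT1A passed the test at an adjusted p of 0.0051 with LPS (10.8% of genes called) and 0.0022 over both treatments (21.6%). ACADM, at a log2 fold change of 0.32 and an adjusted p of 0.098 without the block, then also passed over both treatments, at 0.0030. Without KO LPS library 3, CPT1A was called with LPS at −0.69 on the log2 scale, and without the most deviating library of each group it was called over both treatments at −0.40 (adjusted p = 0.0097, where 13.2% of genes were called). Dropping libraries for their large deviation lowers the spread that the test uses, which favors calls. When the untreated and LPS libraries of a number were averaged to 4 values per line, the adjusted p of CPT1A over both treatments was 0.071. In untreated cells (2.9% of genes called) CPT1A differed from WT by −0.20 (limma adjusted p = 0.68). Whether LPS acted on CPT1A otherwise in KO than in WT cells was tested directly: the LPS responses differed by −0.36 with an interval of −0.81 to 0.09. For that interaction 1 gene was called (0.00806%), which is no member.

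CPT2 (chr1:53196792-53214197, plus strand) sits at the inner membrane, where it returns the acyl group from carnitine to CoA. Its group means lay close together, from 383 ± 88.7 in HA with LPS to 454 ± 68.4 in KO with LPS (SD, n = 4), and each neighbor in the order of the 8 means differed by less than the larger SD. WT libraries ran from 367 to 492. The lowest values were those of the number 1 libraries, the most deviating of their groups, at 271 (HA), 270.3 (HA with LPS) and 264 (SA with LPS). CPT2 was called in no comparison by the fit of group means. Another gene, CZIB, overlaps the end of CPT2 on the opposite strand, and as the strand setting of the counting is not stated, reads of the pair may be mixed.

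ACADM (chr1:75724431-75787575, plus strand), the medium-chain acyl-CoA dehydrogenase, was higher in HA than in WT cells. WT libraries held 498, 465, 728 and 648 normalized counts untreated and 501, 433, 653 and 661 with LPS. HA libraries held 1061, 796, 905 and 755 untreated and 889, 754, 829.9 and 822 with LPS. Each of the 8 HA values exceeded each of the 8 WT values. How many of all tested genes separate groups in this way was not counted, here or for the members below. Over both treatments ACADM rose from a mean of 573 to 851 normalized counts (log2 fold change 0.59 ± 0.13 SE, interval 0.33 to 0.84, limma adjusted p = 0.0016). It was 1 of 2 members called in this comparison, in which 9.08% of all genes were called, 5.04% higher and 4.04% lower. Taken apart, the untreated libraries gave 0.60 (adjusted p = 0.038) and the LPS libraries 0.57 (adjusted p = 0.067), neither past the threshold. KO libraries, at 523, 586, 973 and 768 untreated and 741, 559, 856 and 741 with LPS, overlapped with both lines. The SA libraries (608 to 692 untreated, 533 to 638 with LPS) lay within the WT range.

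ACAA2 (chr18:49782164-49813953, minus strand), the mitochondrial thiolase that cleaves medium-chain 3-ketoacyl-CoA, moved the other way. WT libraries held 365, 369, 469 and 329 normalized counts, and HA libraries 228, 232, 241 and 195. All untreated HA libraries were thus below all WT libraries, and in untreated cells ACAA2 was at 0.589 of its WT level (log2 fold change −0.76 ± 0.18 SE, limma adjusted p = 0.0084). It was the only member of 9 called there, with 2.52% of genes called. With LPS the values were 328, 341, 326 and 298 in WT and 159, 245, 309 and 236 in HA, where HA library 3 lay within the WT range. The difference with LPS was −0.48 (adjusted p = 0.14). No member was called between HA and WT with LPS (0 of 9 by limma with or without precision weights, 2.02% of genes called). At an unadjusted p below 0.05 there were 3 of 9 members and 2072 of the 12406 genes. Over both treatments ACAA2 fell by 0.62 ± 0.13 on the log2 scale (SE, interval −0.88 to −0.36, limma adjusted p = 0.0009). KO libraries held 318, 301, 335 and 225 untreated and 306, 302, 248 and 253 with LPS, a difference from WT of −0.30 over both treatments that was not called (adjusted p = 0.12). SA libraries held 197, 317, 333 and 266 untreated and 349.6, 392, 360.0 and 289.9 with LPS. Whether KO and HA cells differ in ACAA2 or ACADM was not tested.

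How far the calls in HA cells hold depends on how the libraries are counted. In WT cells the untreated and LPS libraries of the same number deviated together, so the 8 WT libraries are not 8 independent samples. In HA cells not every number did so (r of −0.22 to 0.58), so there the averaging joins libraries that were not shown to be paired. With the libraries of a number averaged, 4 values per line, the folds stayed as they were, but ACAA2 (adjusted p = 0.016) and ACADM (0.040) no longer passed, where 2.86% of genes were called. The ACAA2 call in untreated cells was lost when any 1 of the 8 libraries was left out (log2 fold change −0.83 to −0.66, limma adjusted p 0.012 to 0.033). Without the most deviating library of each group, 4 of 9 members were called over both treatments, with 27.8% of all genes: ACAA2 at −0.49, ACADM at 0.62, ECHS1 at 0.54 and HADHB at −0.61. The same 4 were called in untreated cells, with 17.6% of all genes. This fit favors calls, as the libraries were dropped for their large deviation. The ribosomal protein share did not overlap between HA and WT libraries. With this share as a covariate, a fit that extrapolates for this reason, ACAA2 was called at −0.59 and ACADM was at 0.23 with an adjusted p of 0.24, while HADHA (−0.55) and ACADVL (0.91) were called in the direction opposite to that without it (27.3% of genes called).

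**Figure D2:**
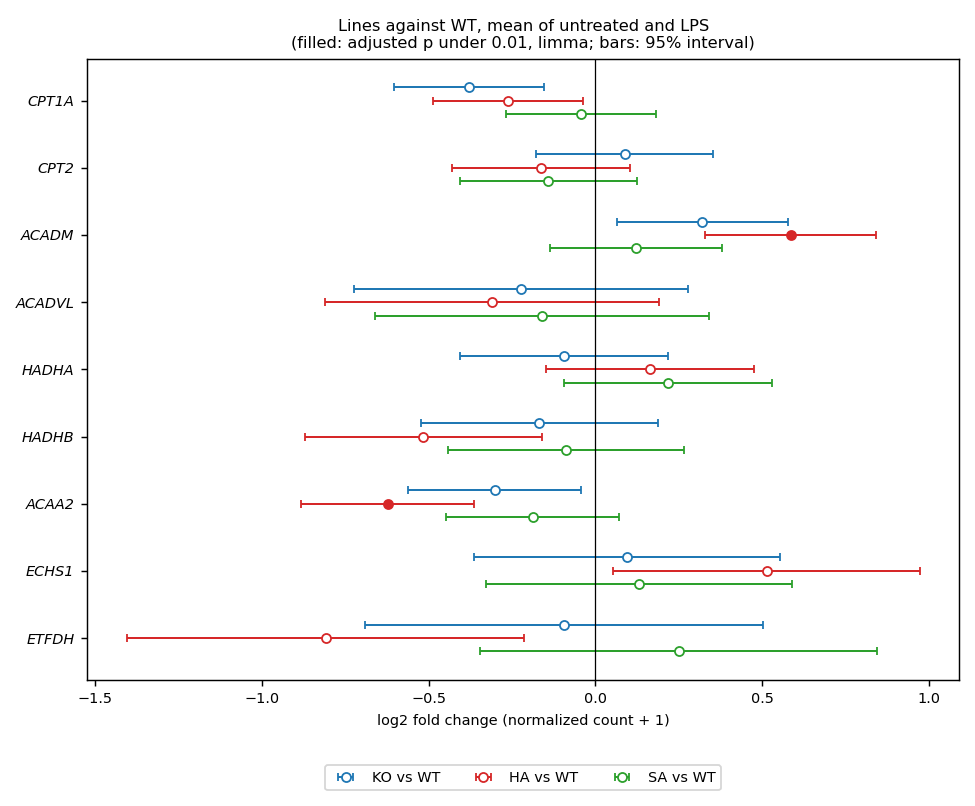
Log2 fold changes of the 9 enzymes in KO, HA and SA cells against WT, averaged over untreated and LPS libraries (limma, 8 against 8 libraries). Bars are 95% intervals and filled points are adjusted p-values below 0.01: ACADM at 0.59 and ACAA2 at −0.62, both in HA.

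ACADVL (chr17:7217125-7225266, plus strand), the very-long-chain acyl-CoA dehydrogenase of the inner membrane, opens the oxidation of long chains. WT libraries held 455 to 580.2 normalized counts untreated and 489 to 601 with LPS, and its group means ran from 428 ± 120.0 in HA to 539 ± 46.4 in WT with LPS (SD, n = 4). The lowest values of KO, HA and SA came from the most deviating libraries: 220.3 in KO against 498 to 566 in its group, 296 in HA against 394 to 585, and 131 in SA with LPS against 552 to 649. The HA difference over both treatments was −0.31 with an interval of −0.81 to 0.19. Without the covariate, ACADVL was called in no comparison.

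HADHA (chr2:26190635-26244672, minus strand) and HADHB (chr2:26243170-26290465, plus strand) encode the alpha and beta subunits of the mitochondrial trifunctional protein, which hydrates, oxidizes and cleaves long-chain intermediates. HADHA held 3524, 3715, 5950.4 and 3667 normalized counts in WT and 5038, 4855, 4912 and 3975 in HA. The third WT library, the most deviating of its group, was above all HA libraries, while the others were below all of them. HADHB held 843, 871, 599 and 734 in WT and 477, 371, 508 and 622 in HA, and 863, 915, 455 and 655 in WT with LPS and 416, 589, 472 and 667 in HA with LPS. Over both treatments HADHA was at 0.16 (interval −0.15 to 0.48) and HADHB at −0.52 (−0.87 to −0.16, limma adjusted p = 0.036) in HA against WT, and neither was called. Pseudogenes named after HADHA, HADHB and ACAA2 are annotated, and reads that match them equally could have been split from these counts.

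Though their starts lie head to head, the levels of the subunits did not run in parallel. Within groups, over 32 libraries, the log2 deviations of HADHA and HADHB from the group mean were related at Pearson r = −0.51 (Spearman −0.53), −0.67 without the 2 libraries farthest on the HADHA axis and −0.31 over the 24 libraries left without the most deviating ones. In WT library 3 HADHA was 0.53 above its group mean on the log2 scale and HADHB 0.33 below it, and in KO library 3 the values were 0.58 above and 0.49 below. HADHB ran instead with ETFDH at r = 0.83 (Spearman 0.82, and 0.73 over the 24 libraries). These libraries share lines, numbers and depth, so the coefficients are a description.

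**Figure D3:**
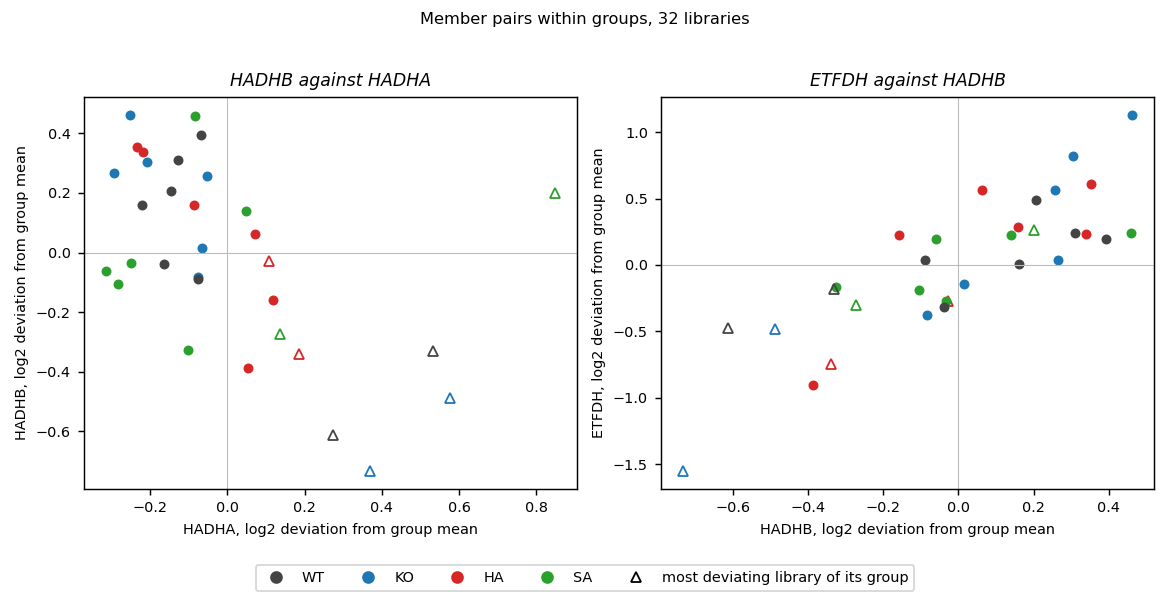
Log2 deviations from the group mean in 32 libraries, HADHB against HADHA (left) and ETFDH against HADHB (right), colored by line, with open triangles for the library of each group that deviated most. HADHA and HADHB fall along a descending band (r = −0.51) that SA LPS library 1, at the far right, leaves, and HADHB and ETFDH along an ascending one (r = 0.83).

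ECHS1 (chr10:133362485-133373354, minus strand), the hydratase for short-chain enoyl-CoA, held 1201, 1177, 1730.4 and 1162 normalized counts in WT and 2324, 2253, 1756 and 1793 in HA. Each untreated HA library was above each WT library, but the spread was wide, with KO library 3 at 2803 and SA LPS library 1 at 3732 against 995 to 1119 in the rest of that group. In untreated cells the difference between HA and WT was 0.63 (interval −0.02 to 1.28, limma adjusted p = 0.21), and over both treatments it was 0.51 (0.05 to 0.97, adjusted p = 0.11). ECHS1 was not called with all 32 libraries in the fit of group means. It was called when only the 4 groups of HA and WT were fitted, at an adjusted p of 0.0091 without and 0.0088 with a replicate block.

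ETFDH (chr4:158671968-158710742, plus strand), the flavoprotein that hands the electrons of acyl-CoA dehydrogenation to ubiquinone, was read at only 16 to 144 reads per library, which limits its precision. It held 61.5, 86.2, 53.8 and 49.0 normalized counts in WT and 25.4, 15.97, 46.0 and 47.6 in HA. Untreated HA libraries were all below the WT libraries, the nearest pair being 47.6 and 49.0. With LPS, WT held 77.8, 75.4, 46.9 and 67.4 and HA 24.4, 50.8, 48.5 and 48.9, with overlap. Over both treatments ETFDH was at −0.81 ± 0.29 in HA (SE, limma adjusted p = 0.049) and was not called. PPID overlaps the end of ETFDH on the opposite strand, with the same limit as for CPT2.

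The library's composition ran along with several members inside the groups. The deviation of ACADVL from its group mean followed the deviation of the ribosomal protein share at r = 0.92 (Spearman 0.83, and 0.75 over the 24 libraries left without the most deviating ones). HADHA followed it at r = −0.89 (−0.88, −0.68) and ECHS1 at r = −0.82 (−0.61, −0.20). For CPT2 it was 0.63 (0.49, 0.15), for ACADM −0.56 (−0.65, −0.19) and for ACAA2 0.06 (0.01, −0.25). HADHB, ETFDH and CPT1A were at r = 0.41, 0.34 and 0.20 with this share. The share of mitochondrially encoded reads also ran with members. ACADM followed its deviation at r = 0.63 (Spearman 0.69, and 0.70 over the 24 libraries) and CPT2 at −0.62 (−0.71, −0.73). ECHS1 was at 0.46 (0.45, 0.41), CPT1A at −0.42 (−0.41, −0.48) and ACAA2 at −0.42 (−0.48, −0.67). HADHA, HADHB, ETFDH and ACADVL were at 0.31, −0.30, −0.23 and −0.16. The mitochondrial share reached higher values in HA (5.60 to 8.36%) than in WT libraries (3.42 to 6.62%). With LPS it was 5.43 to 8.02% in KO and 3.51 to 6.11% in WT. Its part in the calls of ACADM and ACAA2 and in the CPT1A difference in KO was not tested. In the most deviating libraries HADHA and ECHS1 were the highest of the group in 8 of 8 groups, ACADM in 7, and ACADVL the lowest in 7. The part of the ribosomal protein share in the differences between lines was not tested beyond the covariate fit above, and it cannot be told apart from the line, since the shares of WT and HA, like those of WT and KO, do not overlap.

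**Figure D4:**
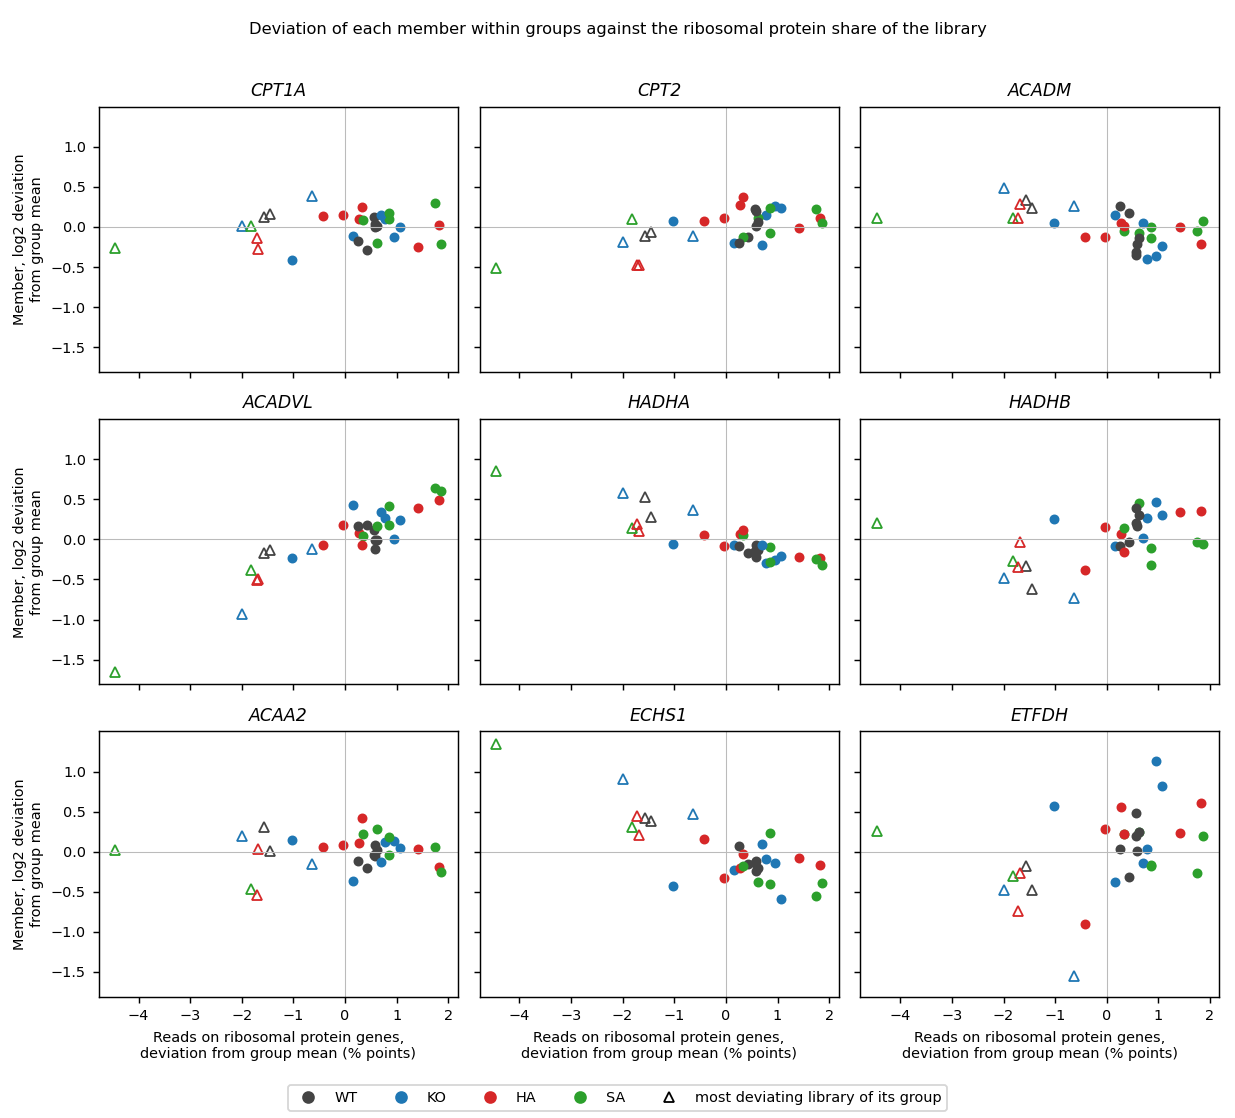
Log2 deviation of each enzyme from its group mean against the deviation of the library's ribosomal protein share (percentage points of reads), 32 libraries colored by line, with open triangles for the library of each group that deviated most. ACADVL rises with the share (r = 0.92), HADHA and ECHS1 fall (r = −0.89 and −0.82), and ACAA2 is at r = 0.06 with this share.

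LPS left the 9 transcripts without a called change. Over the 4 lines, where 1.78% of genes were called, 0 of 9 members passed by limma with or without precision weights. At an unadjusted p below 0.05 there were 1289 of the 12406 genes and 1 member. This was CPT1A at −0.20 (interval −0.36 to −0.05, limma adjusted p = 0.24). The median of the members was −0.01, as was that of all genes tested. By line, 0 of 9 members were called in WT (0.25% of genes), KO (0.58%), HA (0.403%) and SA (0.492%) by either fit, with 0, 0, 0 and 3 members at an unadjusted p below 0.05, as were 200, 673, 591 and 1222 of the 12406 genes. Those 3 in SA were HADHB (548 ± 144 untreated and 872 ± 86.5 with LPS, SD, n = 4), ETFDH (54.8 ± 10.4 and 107 ± 19.7) and CPT1A (2415 ± 219 and 1882 ± 362). Every LPS-treated SA library was above every untreated one for HADHB (999.1, 807, 849 and 833 against 442, 589, 735 and 426) and for ETFDH (126, 92.5, 87.1 and 121 against 43.8, 63.4, 64.1 and 48.1). Their log2 fold changes were 0.70 and 0.95, with limma adjusted p-values of 0.29 and 0.44. For how many of all genes the SA libraries separate this way was not counted. The SA response differed from that of WT by 0.81 for HADHB and 0.58 for ACAA2 (unadjusted p = 0.026 and 0.030, adjusted 1.00 for each). For the differences of the LPS response 0 of 9 members were called in KO, HA and SA, and 0% of genes in HA (142 at an unadjusted p below 0.05) and SA (457).

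**Figure D5:**
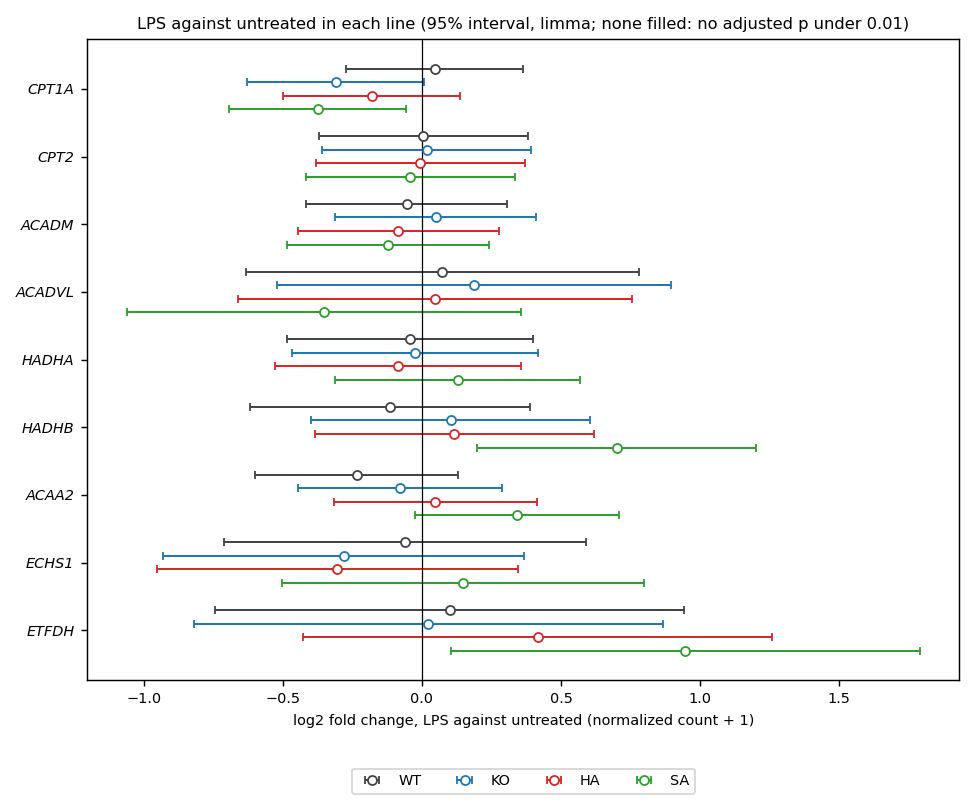
Log2 fold changes of LPS against untreated libraries in each line (limma, 4 against 4 libraries, bars are 95% intervals). No point is filled, as no adjusted p was below 0.01, and the intervals that leave out 0 are those of CPT1A, HADHB and ETFDH in SA.

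Between SA and WT cells none of the 9 members was called untreated, with LPS or over both treatments (0% of genes each by limma, with 445, 646 and 590 genes at an unadjusted p below 0.05, and with precision weights 0, 0 and 1 genes called, no member). Over both treatments the members' differences from WT ran from −0.19 (ACAA2) to 0.25 (ETFDH), 4 higher and 5 lower, and on the deposited scale all 9 were higher, with 199 genes called and no member among them. This average holds differences of opposite sign by treatment. In untreated cells HADHB was at −0.50 (interval −0.997 to 0.0068) and ACAA2 at −0.48 (−0.84 to −0.11, unadjusted p = 0.013, limma adjusted p = 1.00) against WT. With LPS, HADHB was at 0.32 (−0.18 to 0.82) and ETFDH at 0.67 (−0.17 to 1.51), where every SA library (87.1 to 126) was above every WT library (46.9 to 77.8). For how many of all genes this holds was not counted.

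The other genes of the pathway came from lists written with earlier results of these data known. Of 15 further mitochondrial beta-oxidation enzymes tested, over both treatments 2 were called in HA against WT (9.08% of all genes) and 0 in KO (7.75%): ACADS, the short-chain dehydrogenase, rose by 0.85 and HADH, the short-chain 3-hydroxyacyl-CoA dehydrogenase, fell by 0.57 (limma adjusted p = 0.0068 and 0.00057). Their median was −0.23, beside −0.26 for the 9 members and −0.03 for all genes. Medians below that of all genes were also measured in HA for the peroxisomal genes (−0.30), lipid stores (−0.32), regulators (−0.22) and the reference genes of the citric acid cycle and mitochondrial upkeep (−0.20). The other carnitine genes were at −0.15, PPAR targets outside beta-oxidation at −0.18 and genes for uptake and activation at −0.03. The malonyl-CoA brake went the other way, at 0.28, with 3 of its 3 genes higher. Of 12 genes for uptake and activation only ACSL3, an acyl-CoA synthetase, was called, in KO at 0.28 (limma adjusted p = 0.0058). Of 5 other carnitine genes and 3 genes of the malonyl-CoA brake (ACACA, ACACB and MLYCD) none was called in KO, HA or SA. Among 13 peroxisomal genes PHYH rose by 0.52 and PECR fell by 0.81 in KO (limma adjusted p = 0.0078 and 0.0088), and 0 were called in HA.

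Genes of lipid stores and lipolysis, which supply the fatty acids, held called changes in both KO and HA cells. In untreated cells LPL, the lipoprotein lipase, was at 235 ± 41.8 normalized counts in WT, 85.5 ± 23.4 in KO, 68.0 ± 10.8 in HA and 224 ± 17.0 in SA (SD, n = 4). Over both treatments LPL fell in KO (log2 fold change −1.58) and in HA (−1.83) (limma adjusted p = 2.3e-09 and 2.9e-10). MGLL, the monoglyceride lipase, was in untreated cells at 98.9 ± 25.7 in WT, 582 ± 221 in KO, 361 ± 79.1 in HA and 122 ± 31.5 in SA. Over both treatments MGLL rose by 2.40 and 1.90 in KO and HA (limma adjusted p = 2.9e-11 and 6.1e-09). In HA the lipid droplet protein PLIN2 fell by 0.69 and the triglyceride lipase PNPLA2 rose by 0.54, and in KO the triglyceride synthase DGAT2 fell by 0.49. In all, 4 of 11 tested genes of this list were called in HA, beside 9.08% of all genes, and 3 in KO, beside 7.75%. Of 13 regulators, PRKAA1, a catalytic subunit of AMP-activated kinase, fell by 1.47 in HA (adjusted p = 0.00056), and the others, the PPAR genes among them, were not called in KO, HA or SA. Of 8 listed PPAR targets outside beta-oxidation 3 were tested and 0 called. Of 15 reference genes of the citric acid cycle and mitochondrial upkeep 1 was called, the import receptor TOMM20, which fell by 0.55 in HA. Over the 4 lines 0 genes of any of these lists were called with LPS.

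Across the 32 libraries the genes whose levels ran most like a member's, at Pearson r of log2(normalized count + 1), were TAX1BP1 (0.94) and SCLT1 (0.90) for ACADM, CCNA2 (0.79) and MRPS30 (0.79) for ACAA2, and GDE1 (0.89) and ZNF276 (0.85) for CPT1A. For CPT2 they were EVI2B and PIGW (0.84 and 0.83), for ACADVL MYDGF and FAU (0.96 each), and for HADHA ZFP91 and MEF2C (0.93 each). For HADHB they were CYCS and ACTN4 (0.93 each), for ECHS1 EMC10 and CNN2 (0.97 each), and for ETFDH RASA3 and INTS8 (0.85 each). The members themselves had 18 of 36 pairs at a positive r, from −0.81 (ACADVL and ECHS1) to 0.87 (HADHB and ETFDH), with a median of −0.03. All these r mix differences between groups with those between libraries. Within groups, CCNA2 and MRPS30 ran with ACAA2 at 0.64 and 0.60. Within groups and without the most deviating libraries, ACADVL and ECHS1 were at −0.28 and HADHB and ETFDH at 0.73. The coefficients are a description.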

How the data were processed

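RNA of 32 THP-1 samples (8 groups of 4 by the labels) was sequenced with QuantSeq 3′ FWD libraries. According to the methods, the authors trimmed reads with Bbduk, mapped them with STAR to GRCh38, counted them per gene with HTSeq-count and used DESeq2. Strandedness of the counting and tool versions are not given in the sources used here. The labels give 100 ng/ml LPS and a paragraph of the methods gives 10 ng/ml. The deposited values are normalized counts, with other rows (92 spike-ins, 1 read) left out. Within each line they equal reads divided by median-of-ratios factors of that line, and 100% of the values came out as whole reads within 0.05. Those reads were divided by factors computed jointly over 32 libraries.

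Genes with a mean deposited value of at least 10 (12406 of 60107) entered a limma fit (version 3.58.1, R 4.3.3) of 8 group means with an eBayes trend, for which 1 was added to the normalized count before taking log2. P-values were adjusted by Benjamini-Hochberg over all tested genes with a limit of 0.01, and intervals are at 95%. The fit was tested on simulated counts, drawn independently for each library. They held no pairing by number, no outlying library and no difference in composition, so that test does not cover these features. Low counts understate fold changes on this scale, and reads are not independent molecules, as molecular identifiers were not counted. Count models, planned as alternatives, were not run on the reads recovered from normalized values.

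Members, lists and named genes (the 9 members, called list genes, the 2 most similar genes per member) were chosen with earlier results of these data known, and CCL4 was named after its values were seen. Same-numbered libraries of the WT and KO groups deviated together, at r of at least 0.12 in all 6 pairs of groups, while 0 of 22 pairs of groups with HA or SA had every r above 0.1. Alternatives were another scale, pseudocount, filter, weights, library set, block, covariate and averaging, of which the weights, the removal of the most deviating libraries, the averaging and the covariate were chosen after seeing the data. Coordinates are those of GENCODE release 44.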

Additional observations from a re-analysis of the deposited data

Results flagged for a closer look

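In 6 of 72 sets of 4 libraries 1 library lay far from the others by Dixon's ratio, which chance gives in about 1 of 20 sets, and all 6 were the most deviating library of its group over all genes. HADHA was at 5950.4 normalized counts in WT library 3 (3524 to 3715 in the others), at 4823 in WT LPS library 3 (3651 to 3811) and at 8862 in SA LPS library 1 (3959.7 to 4138). ECHS1 was at 1730.4 in WT library 3 (1162 to 1201) and at 3732 in SA LPS library 1 (995 to 1119). ETFDH was at 24.4 in HA LPS library 1 (48.5 to 50.8).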

How the results depend on the processing

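Of 3843 values recomputed under the alternatives, 274 took another sign, 10 of them with either value called. Numbers here are members called of 9, from 0 in KO against WT (each treatment and their mean) and in HA against WT with LPS, 1 in untreated HA and 2 in the HA mean. On the deposited scale there was 1 in KO with LPS and 1 in the KO mean (CPT1A in each), and the 1 in untreated HA was ACADM (0.75, adjusted p = 0.0077) in place of ACAA2 (−0.62, adjusted p = 0.025). In untreated HA there were 0 without the filter on low values and 0 with only the groups compared, with or without the replicate block. The replicate block gave 1 in KO with LPS and 2 in the KO mean when only those groups were fitted, and 1 in each when all libraries were, and the block itself changed no other call. With only the groups compared ECHS1 was added in the HA mean, with and without the block. Leaving out 1 library gave 0 to 0 in untreated HA, and 0 to 1 in KO with LPS and in the KO mean, the 1 being CPT1A without KO LPS library 3. In the HA mean ACAA2 and ACADM passed in 16 of 16 such fits. Without the most deviating library of each group there were 1 in KO with LPS, 1 in the KO mean, 4 in untreated HA and 4 in the HA mean. Averaging same-numbered libraries gave 0 in the HA mean. With the ribosomal protein share as a covariate there were 2 in untreated KO, 3 in KO with LPS, 4 in the KO mean, 2 in untreated HA and 2 in HA with LPS. In this fit the share of all genes called is given here only for the HA mean (27.3%). The counts of members in the other comparisons therefore cannot be set against that of all genes. There ACADVL turned to 0.81, 1.101 and 0.96 (KO untreated, LPS and mean) and 0.93, 0.88 and 0.91 (HA), ECHS1 to −0.88 (KO mean), and HADHA to −0.54, −0.57 and −0.55 (HA untreated, LPS and mean). The cause was not tested. Over all genes the number called in the HA mean was 1126, against 1722 on the deposited scale, 3452 without the most deviating libraries, 355 with averaging and 3392 with the covariate. In the KO mean it was 962, against 1066 on the deposited scale, 2682 with the block (only those groups fitted) and 1641 without the most deviating libraries. In KO with LPS it was 430 against 1336 with the block (only those groups fitted). In untreated HA it was 313 against 2188 without the most deviating libraries, and in the SA mean 0 against 199 on the deposited scale. For the other alternatives and comparisons above the number over all genes is not given here. Their counts of members therefore cannot be set against it. The planned edgeR and DESeq2 count tests were not run. Depth limits ETFDH most, at 16 to 144 reads.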
